A study of Mus musculus with 6 samples.

Results

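The semaphorins with their plexin and neuropilin receptors, and the ephrins with their Eph receptors, were examined in mouse embryonic fibroblasts (MEFs) that had passed through narrow pores. Members were chosen by gene symbol and by protein-coding annotation, which gave 53 of the 55335 genes in the count table: 20 semaphorins, 9 plexins, 2 neuropilins, 8 ephrins and 14 Eph receptors. The rule itself refers to no measured value, although it was written with earlier results of these data known.

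The Confine group held wild-type MEFs that had crossed the 3 μm pores of a transwell membrane within 15 h. The Ctrl group held the parental wild-type MEFs, and the stock cultures were kept in medium with fetal bovine serum. The study's general transwell method, written for another pore size, put serum-free medium above the membrane and serum below it, and whether this held for the sequenced cells is not given in the sources used here. MEFs are connective tissue cells grown from mouse embryos. Whether the Ctrl cells were kept on a membrane is not given in the sources used here, so passage through the pores, growth on the membrane, a serum difference and selection of the cells that crossed cannot be told apart. In bulk RNA, fewer cells of a type and less RNA per cell also cannot be told apart.

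Semaphorins are guidance proteins that act mostly by repelling or collapsing the moving edge of a cell. Class 3 members are secreted and usually bind a neuropilin paired with a plexin, whereas class 4 to 6 members are transmembrane proteins that bind plexins directly, and the class 7 member is tethered to the membrane by a lipid anchor. Eph receptors are tyrosine kinases that bind membrane-held ephrins on neighbouring cells, ephrin-A by a lipid anchor and ephrin-B by a transmembrane segment, and this contact signalling sorts cells and steers migrating cells, including fibroblasts.

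The table held 6 columns, 3 per group. Confine replicates 1 and 2 carried the same value for every gene, so they entered the fit as a single library, named Confine 1 here. All tests therefore set 3 Ctrl against 2 Confine libraries. Total counts ranged from 22287210 to 27853805 in Ctrl and were 32537550 and 27290138 in Confine. Over the libraries of both groups, 3 counts corresponded to between 0.101 and 0.128 CPM, a gene's count divided by the library size in megareads. Library sizes were scaled by TMM, a method that assumes most genes do not differ. Nothing in the labels says that the replicates came from separate cultures, so p-values measure the spread between these libraries, which may be technical. Of the fibroblast markers, Col1a1, Col1a2, Col3a1, Vim and others were expressed while Thy1 and Lum were at or near 0 and Dcn had 2, 0 and 0 counts in Ctrl and 27 and 3 in Confine, and the summed CPM of the 11 markers was 8153.5 to 8938 in Ctrl and 14367 to 15037 in Confine (8 tested, 5 higher, 1 lower). Summed CPM of leukocyte markers was 15.9 to 18.2 in Ctrl and 35.8 to 41.4 in Confine with Ptprc, Adgre1 and Itgam at or near 0. Of the 4 of 10 leukocyte markers tested, Cd68 (log2 fold change 2.67), Cd14 (0.92) and Csf1r (1.45) were higher and Lyz2 (-2.64) was lower in Confine. The summed CPM of neuron and Schwann cell markers was 19.4 to 25.0 and 13.8 to 15.3 (4 of 9 tested, 1 lower). Muscle and mural markers summed to 214.5 to 231.4 in Ctrl and 435.8 to 442.5 in Confine (3 of 6 tested, 2 higher, 1 lower). Endothelial markers summed to 0.595 to 1.36 in Ctrl and 2.43 to 2.70 in Confine, almost all from Vwf, the 1 of 8 tested, which was higher, and epithelial markers to 0.276 to 0.529 and 0.169 to 0.675 (0 of 6 tested). Their part in the results was not tested.

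Sequence upstream of the start sites is given for some of the called members, of which Sema3d, Sema3e and Sema7a were added after values were seen. They are 3 class 3 semaphorins that lie on the same chromosome and were downregulated in Confine, and Sema6b and Sema7a, which were upregulated. Sema4g and Sema4f changed more than Sema6b, and Epha4 and Sema4a more than Sema3d, but their windows are not printed. Each line is the 250 bases before a RefSeq start site on GRCm38.p6, read 5′ to 3′ on the strand of the gene. Capitals mark ACGTG, the core bound by hypoxia-inducible factors and by several basic helix-loop-helix factors, and TGANTCA, the site of AP-1 factors, on either strand.
Sema3a, chr5:13396534-13396783, plus strand: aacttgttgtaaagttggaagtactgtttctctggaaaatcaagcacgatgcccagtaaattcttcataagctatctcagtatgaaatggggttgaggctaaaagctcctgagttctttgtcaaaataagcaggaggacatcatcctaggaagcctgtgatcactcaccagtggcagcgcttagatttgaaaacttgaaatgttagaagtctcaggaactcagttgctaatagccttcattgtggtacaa
Sema3d, chr5:12382916-12383165, plus strand: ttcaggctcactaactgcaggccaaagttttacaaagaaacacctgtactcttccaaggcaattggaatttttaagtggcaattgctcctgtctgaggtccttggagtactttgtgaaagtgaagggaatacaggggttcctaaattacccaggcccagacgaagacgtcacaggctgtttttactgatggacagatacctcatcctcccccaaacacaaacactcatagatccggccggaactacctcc
Sema3e, chr5:14025026-14025275, plus strand: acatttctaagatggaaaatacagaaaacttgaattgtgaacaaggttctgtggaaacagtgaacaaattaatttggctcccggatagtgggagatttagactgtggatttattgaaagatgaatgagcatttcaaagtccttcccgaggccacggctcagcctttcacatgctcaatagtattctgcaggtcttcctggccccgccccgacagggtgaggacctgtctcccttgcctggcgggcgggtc
Sema6b, chr17:56133853-56134102, minus strand: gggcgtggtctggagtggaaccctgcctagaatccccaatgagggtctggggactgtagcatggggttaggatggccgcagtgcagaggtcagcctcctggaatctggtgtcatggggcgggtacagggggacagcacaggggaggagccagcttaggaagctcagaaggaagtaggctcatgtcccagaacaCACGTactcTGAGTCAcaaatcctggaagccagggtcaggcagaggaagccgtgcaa
Sema6b, chr17:56140344-56140593, minus strand: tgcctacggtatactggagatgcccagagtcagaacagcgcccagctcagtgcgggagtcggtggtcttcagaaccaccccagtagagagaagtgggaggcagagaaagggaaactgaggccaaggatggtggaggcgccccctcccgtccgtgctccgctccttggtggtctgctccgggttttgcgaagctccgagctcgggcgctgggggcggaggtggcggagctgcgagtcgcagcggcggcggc
Sema7a, chr9:57939862-57940111, plus strand: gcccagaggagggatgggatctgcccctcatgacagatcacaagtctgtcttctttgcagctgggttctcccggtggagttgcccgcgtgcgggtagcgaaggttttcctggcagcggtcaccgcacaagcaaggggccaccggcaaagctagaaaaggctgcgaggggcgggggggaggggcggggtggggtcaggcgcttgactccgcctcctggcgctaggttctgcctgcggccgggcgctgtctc
The windows differ in GC content, which was 40.8% for Sema3a, 46.8% for Sema3d and 48.0% for Sema3e, against 59.2% and 66.0% for the Sema6b starts and 66.4% for Sema7a, with a median of 52.4% over 32851 windows of the same length. This order holds for the printed windows and not for the families, since the window of upregulated Sema4f was at 46.0% and that of the class 3 member Sema3c at 78.4%. It does not hold for the called members either. Windows of the other downregulated members ran from 56.4% (Sema4a) to 74.8% (Efna5), all above that median. The Sema3a window lies at a start within the gene as GENCODE draws it and not at its outermost start. Only one of the printed windows, an inner start of Sema6b, held ACGTG (read there as CACGT) and TGANTCA (read as TGAGTCA), which are separated by a few bases. ACGTG, which overlaps the E-box CACGTG, occurred in windows of 2 of the 5 upregulated and 2 of the 10 downregulated members and in 16.6% of all windows. TGANTCA occurred in windows of 1 upregulated and 0 downregulated members and in 6.75% of all windows. A match is a run of letters and no evidence of binding, and genes with several start sites have several windows.

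Across the families, guidance genes changed in both directions. Transmembrane and anchored semaphorins were among those upregulated, and class 3 semaphorins, EphA receptors and Efna5 among those downregulated. Of the called members, Sema4f, Sema4g and Sema7a passed the filter on low counts in Confine only, and Epha4, Sema3e and Sema4a in Ctrl only. Their calls give no support to this pattern. Of the 53 members, 37 had enough counts to be tested, and 15 passed edgeR's quasi-likelihood test at a Benjamini-Hochberg adjusted p under 0.05 (40.5%), against 23.0% of the 15881 genes tested. Of these, 5 were upregulated in Confine, where 12.8% of all tested genes were, and 10 were downregulated, where 10.2% of all tested genes were. Adding an absolute log2 fold change above 1.5 left 4 upregulated members (4.89% of all tested genes) and 5 downregulated members (3.11%), 9 in all (8.00%). The median log2 fold change was 0.01 over the tested members and -0.002 over all tested genes.

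Of the 15 called members, 6 did not pass the filter on low counts in both groups, so the 40.5% given above rests partly on them. The 23.0% of all tested genes was likewise not restricted to genes that passed in both groups. A background restricted in that way was not counted, so the following member counts have no matching share of all genes. The filter on low counts was passed by both groups for 30 members, of which 9 were called (2 upregulated, 7 downregulated). It was passed by only one group for 7 members, namely Sema4f, Sema4g and Sema7a in Confine and Efnb3, Epha4, Sema3e and Sema4a in Ctrl, so a called member among these had to differ and its call gives no support to the count. In every member called, all Confine libraries lay on one side of all Ctrl libraries. This was so for 24 of the 37 tested members, 12 above and 12 below, where 49.5% of all tested genes did not overlap (25.9% above, 23.6% below). Over all genes tested, 2035 were higher and 1619 lower in Confine, and with library size in place of TMM the split was 1444 to 2805.

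**Figure D1:**
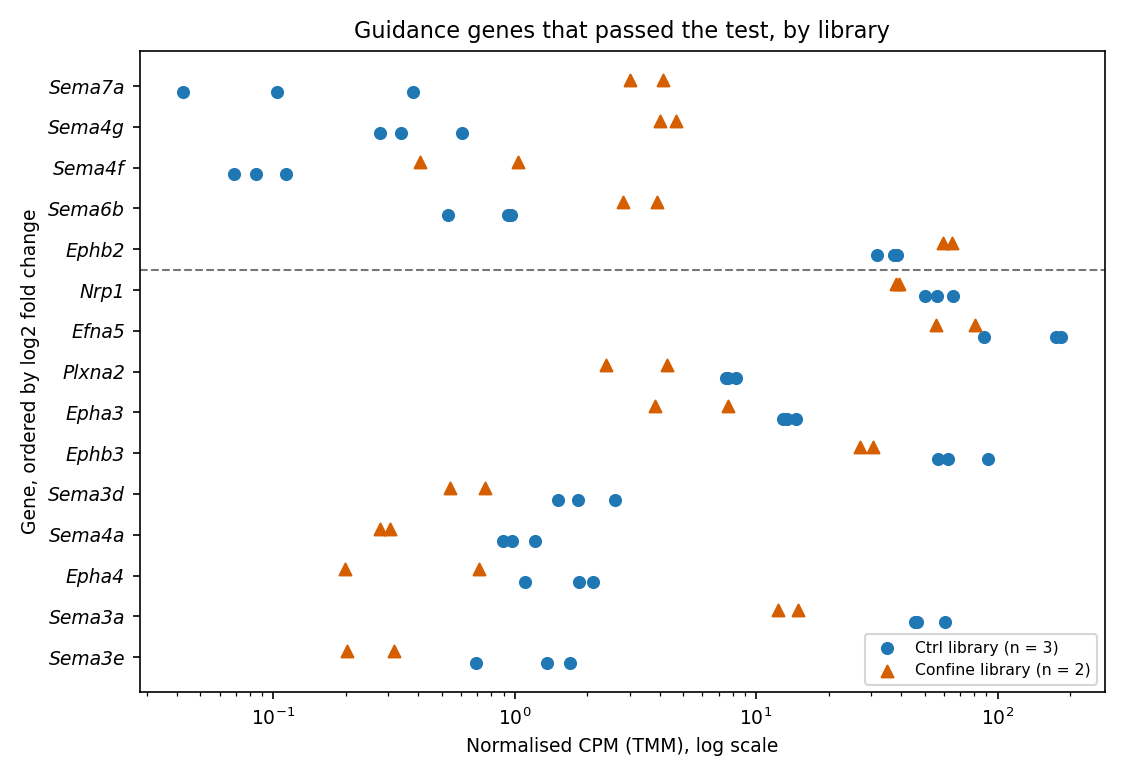
Normalised CPM on a log axis for the 15 members that passed the test, 1 point per library (circles, 3 Ctrl; triangles, 2 Confine), ordered by log2 fold change. The 5 genes above the dashed line were upregulated, and Sema7a moved from at most 0.378 CPM in Ctrl to at least 3.02 in Confine.

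Among the ligands, Sema7a was the most strongly upregulated member. Sema7a encodes the lipid-anchored class 7 semaphorin, which binds plexin C1 and an integrin that contains the Itga1 subunit. It had 3, 10 and 1 counts in Ctrl and 122 and 76 in Confine, or 0.175 ± 0.179 CPM (SD, n = 3) against 3.57 ± 0.781 (SD, n = 2). Both Confine libraries lay well above every Ctrl library, which were near the limit of 3 counts. The gene passed the filter on low counts in Confine only. The log2 fold change was 4.30 (SE 0.53, edgeR adjusted p = 8.91e-06). The ratio of summed counts per TMM-scaled library size was 20.4 with a 95% exact counting interval of 11.9 to 37.9. Leaving out 1 library moved the log2 fold change to between 3.87 and 5.47, the highest without Ctrl 2, which held 10 of the 14 Ctrl counts, and the call was kept each time. The gene lies at chr9:57940112-57962865 on the plus strand.

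Of the class 4 semaphorins, Sema4g and Sema4f were upregulated and Sema4a was downregulated. They encode transmembrane ligands, of which Sema4a is known from T cell responses. Sema4g (chr19:44989101-45003397, plus strand) had 8, 16 and 8 counts in Ctrl and 118 and 117 in Confine, a 10.5-fold rise from 0.407 ± 0.174 CPM (SD, n = 3) to 4.32 ± 0.466 (SD, n = 2; log2 fold change 3.39, SE 0.40, edgeR adjusted p = 4.75e-06). Sema4f (chr6:82911885-82939769, minus strand) had only 2, 3 and 2 counts in Ctrl, against 12 and 26 in Confine. Confine 3 was the higher of the Confine libraries, at 1.03 against 0.405 CPM. The ratio of summed counts per TMM-scaled library size was 7.82 with an exact counting interval of 3.45 to 20.8 (log2 fold change 2.94, SE 0.74, edgeR adjusted p = 0.00675). Leaving out 1 library gave log2 fold changes of 2.90 to 3.47 where Sema4f was tested. Without Ctrl 1 and without Confine 3 it was not tested, so its call could not be checked there. Sema4a (chr3:88435959-88461182, minus strand) went the other way, with 26, 32 and 23 counts in Ctrl and 9 and 7 in Confine (log2 fold change -1.80, SE 0.55, edgeR adjusted p = 0.0226). Its call was lost without Confine 1 (-1.87, edgeR adjusted p = 0.116) and without Confine 3 (-1.74, edgeR adjusted p = 0.136). Counting intervals and floors cover counting error only. Sema4f and Sema4g passed the filter on low counts in Confine only, and Sema4a in Ctrl only.

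Sema6b, a transmembrane class 6 ligand of class A plexins, was upregulated from 28, 14 and 22 counts in Ctrl to 115 and 71 in Confine. In CPM this was 0.811 ± 0.244 (SD, n = 3) and 3.35 ± 0.754 (SD, n = 2), a 4.12-fold difference (log2 fold change 2.04, SE 0.38, edgeR adjusted p = 0.000558). The lowest Confine library, at 2.82 CPM, was above the highest Ctrl library at 0.967. Sema6b lies at chr17:56123085-56140343 on the minus strand. Sema4b, a class 4 ligand, gave 75.6%, 79.6% and 79.3% of the summed CPM per kilobase of exon of the semaphorins of classes 4 to 7 in Ctrl and 59.7% and 55.4% in Confine, while Sema7a went from 0.467%, 1.12% and 0.167% to 13.1% and 10.2%. These shares divide each gene by the merged length of all its annotated exons, so they can still depend on which transcripts the gene makes. The class summed to 8.24 ± 1.80 CPM per kb in Ctrl (SD, n = 3) and 9.25 ± 0.438 in Confine (SD, n = 2).

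The class 3 semaphorins, secreted repellents, were downregulated in 3 of the 6 tested members, beside 10.2% of all tested genes. Among these, Sema3e passed the filter on low counts in Ctrl only, so its call gives no support to this count. Upregulated members numbered 0 by edgeR, DESeq2 or limma-voom and also at an unadjusted p under 0.05 in edgeR, beside 12.8% of all tested genes. Sema3a, the best-known secreted repellent and a ligand of neuropilin-1, had 60.3, 46.6 and 45.5 CPM in Ctrl and 12.4 and 14.9 in Confine. The lowest Ctrl library was far above the highest Confine library. The log2 fold change was -1.90 (SE 0.21, edgeR adjusted p = 2.55e-06), a 3.73-fold decrease from 50.8 ± 8.26 CPM (SD, n = 3) to 13.6 ± 1.81 (SD, n = 2). Of the other class 3 members, Sema3c, the most abundant per length, gave 75.7 ± 10.2 CPM in Ctrl (SD, n = 3) and 61.9 ± 6.21 in Confine (SD, n = 2), and its difference did not pass the test (log2 fold change -0.29, 95% interval -0.687 to 0.107, edgeR adjusted p = 0.301). Sema3a counts relative to those of Sema3c, which need no scaling between libraries, came to 0.725, 0.584 and 0.710 in the Ctrl libraries against 0.186 and 0.259 in the Confine libraries, with no overlap.

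Sema3d and Sema3e, the downregulated neighbours of Sema3a, were expressed at lower levels. Sema3d had 44, 69 and 43 counts in Ctrl and 16 and 19 in Confine (log2 fold change -1.62, SE 0.44, edgeR adjusted p = 0.0116), and Sema3e, which can bind plexin D1 without a neuropilin, had 20, 36 and 40 against 6 and 8 (log2 fold change -2.25, SE 0.59, edgeR adjusted p = 0.00933). In both genes the Confine libraries were below all Ctrl libraries. Without Confine 1 the calls were lost, at log2 fold changes of -1.39 for Sema3d (edgeR adjusted p = 0.117) and -1.95 for Sema3e (edgeR adjusted p = 0.108). The 3 downregulated genes lie within one stretch of the genome, at chr5:12383385-12588948 for Sema3d, chr5:13125414-13602565 for Sema3a and chr5:14025276-14256689 for Sema3e, all on the plus strand, with gaps of 536.5 kb and 422.7 kb between them. The only other protein-coding gene tested between Sema3d and Sema3e, Speer3, had a log2 fold change of -1.69 and did not pass (edgeR adjusted p = 0.243). Sema3c, 3317.6 kb beyond Sema3e, did not pass, and of the other protein-coding genes tested between them Gm28710 was higher in Confine (1.99, edgeR adjusted p = 0.0131), while Cacna2d1 gave 0.56 (edgeR adjusted p = 0.0627) and Hgf -1.42 (edgeR adjusted p = 0.230). Annotated records of unknown status lie inside Sema3a (Gm42675 and Gm42676) and Sema3e (Gm43519) on the same strand, with mean counts of 42.8, 38.8 and 33.6, and how reads were assigned between them is not given in the sources used here. The mean counts of Sema3a and Sema3e themselves were 958.2 and 22.0, so Sema3e should be read with that uncertainty.

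The other tested semaphorins did not pass. These were Sema3b, Sema3f, Sema4b, Sema4c and Sema5a besides Sema3c, with log2 fold changes from -0.39 (Sema3f, edgeR adjusted p = 0.192) to 0.53 (Sema5a, edgeR adjusted p = 0.499). Class 3 members made up 77.9%, 66.7% and 72.0% of the summed semaphorin CPM per kb in Ctrl and 62.6% and 64.2% in Confine.

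**Figure D2:**
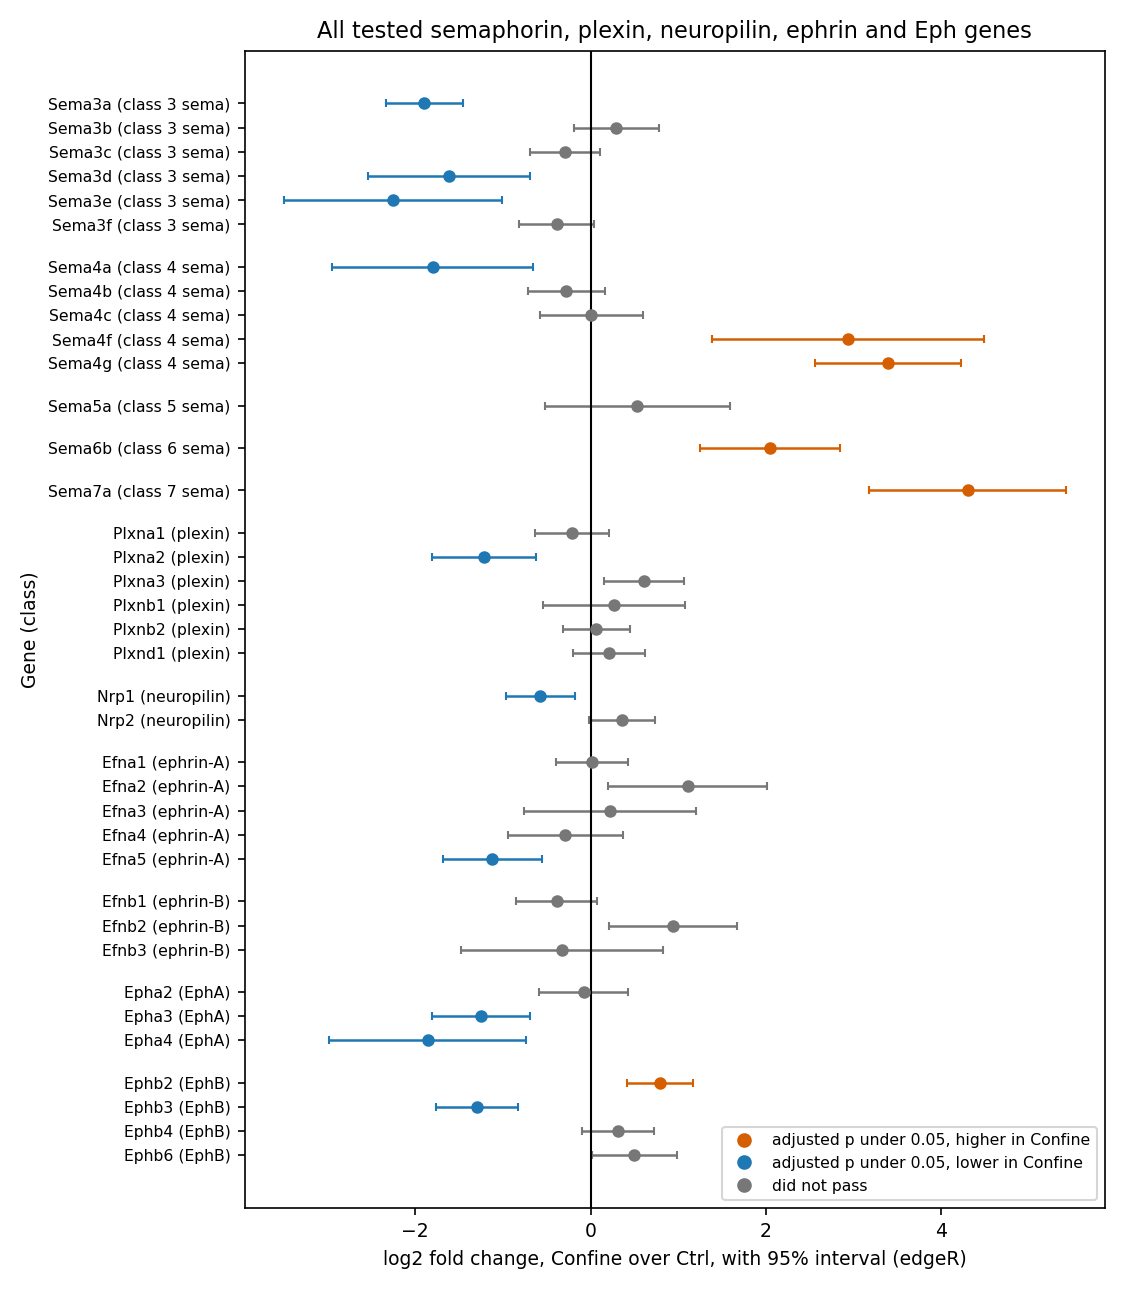
Log2 fold changes, Confine over Ctrl, of the 37 tested members by class, with 95% intervals from edgeR; colours mark the direction of those at an adjusted p under 0.05. The class 3 semaphorins called lie left of 0 and Sema7a, at 4.30, lies farthest right.

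Of the semaphorin receptors, neuropilin-1 and plexin A2 were downregulated and the more abundant receptors did not pass. Nrp1, a co-receptor for class 3 semaphorins and for vascular endothelial growth factor, had 65.6, 50.1 and 56.1 CPM in Ctrl and 39.0 and 38.0 in Confine (log2 fold change -0.57, SE 0.19, edgeR adjusted p = 0.0352). The groups did not overlap, but the difference was close to the threshold. Its call was lost without Ctrl 1 (-0.47, edgeR adjusted p = 0.174), without Confine 1 (-0.59, edgeR adjusted p = 0.178) and without Confine 3 (-0.55, edgeR adjusted p = 0.224). Nrp2, the neuropilin that Sema3F prefers, had 4394, 4914 and 4376 counts in Ctrl and 6867 and 5427 in Confine, and its difference did not pass (log2 fold change 0.36, 95% interval -0.016 to 0.733, edgeR adjusted p = 0.165). Within a library the ratio of Nrp2 to Nrp1 counts was 2.31, 3.71 and 3.32 in Ctrl and 5.95 and 5.66 in Confine, all higher in Confine, and Nrp1 gave 34.3%, 24.6% and 26.7% of neuropilin CPM per kb in Ctrl against 16.9% and 17.6%. Nrp1 lies at chr8:128358604-128503363 on the plus strand.

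Plxna2, which encodes a plexin that works with neuropilins and also binds class 6 semaphorins, had 7.63, 8.28 and 7.48 CPM in Ctrl and 4.29 and 2.38 in Confine (log2 fold change -1.22, SE 0.28, edgeR adjusted p = 0.00372). Confine 3 was the lower of the Confine libraries, and without it the call was lost (-0.86, edgeR adjusted p = 0.0981). Plxna2 lies at chr1:194618218-194816869 on the plus strand and contains same-strand records, of which Gm37783 had a log2 fold change of -3.52 on a mean of 11.0 counts. Plxnb2, a receptor for class 4 semaphorins, was the most abundant plexin per length and made up 60.8%, 60.3% and 61.0% of plexin CPM per kb in Ctrl and 61.0% and 63.0% in Confine. Its level was 125 ± 15.6 CPM in Ctrl (SD, n = 3) and 131 ± 8.73 in Confine (SD, n = 2), and the difference did not pass (log2 fold change 0.06, 95% interval -0.318 to 0.448, edgeR adjusted p = 0.842). Plxna1 also did not pass, at 64.1, 66.7 and 45.5 CPM in Ctrl and 52.6 and 48.8 in Confine (-0.21, 95% interval -0.631 to 0.206, edgeR adjusted p = 0.493). Plxna3 was nearest to the threshold among the receptors not called, at a log2 fold change of 0.61 (edgeR adjusted p = 0.0518). The remaining tested plexins, Plxnb1 and Plxnd1, gave 0.27 and 0.21. Summed plexin CPM per kb was 26.7 ± 3.46 in Ctrl (SD, n = 3) and 27.3 ± 1.21 in Confine (SD, n = 2).

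Among the 8 ephrins, all of which were tested, Efna5 was downregulated and 0 were upregulated by edgeR or DESeq2. Over all tested genes, edgeR called 10.2% lower and 12.8% higher in Confine, and the ephrin counts were not tested against these shares. At an unadjusted p under 0.05 in edgeR, 2 ephrins were higher in Confine (Efna2 and Efnb2), and limma-voom called Efnb2. Efna5 encodes ephrin-A5, a lipid-anchored ligand of EphA receptors that also binds EphB2. It had 183, 87.7 and 174 CPM in Ctrl and 80.8 and 55.5 in Confine (log2 fold change -1.12, SE 0.27, edgeR adjusted p = 0.0047). Ctrl 2 lay close to Confine 1, and the call was lost without Confine 3 (-0.88, edgeR adjusted p = 0.130). Efna1, the other ephrin of similar level per length in Ctrl (39.0 ± 7.59 against 36.8 ± 13.1 CPM per kb, SD, n = 3), had 75.4, 55.8 and 82.7 CPM in Ctrl and 75.3 and 69.2 in Confine and did not pass (0.02, 95% interval -0.394 to 0.432, edgeR adjusted p = 0.960). The Ctrl levels of Efna1 and Efna5 did not differ beyond their spread, whereas in Confine they were 39.5 ± 2.37 and 16.9 ± 4.44 CPM per kb (SD, n = 2). Within a library the ratio of Efna5 to Efna1 counts was 2.43, 1.57 and 2.11 in Ctrl and 1.07 and 0.803 in Confine. Efna5 gave 48.8%, 35.9% and 45.5% of ephrin CPM per kb in Ctrl and 29.5% and 23.6% in Confine. The gene lies at chr17:62604184-62881317 on the minus strand.

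The remaining ephrins did not pass. Efnb2, an ephrin-B ligand of EphB receptors, had a log2 fold change of 0.94 (edgeR adjusted p = 0.0592), and Efna2 one of 1.11 (edgeR adjusted p = 0.0744), and in each gene Confine exceeded every Ctrl library. The others lay between -0.39 (Efnb1) and 0.22 (Efna3). Efna1, Efna3 and Efna4 lie next to each other on chromosome 3, 32.8 and 10.4 kb apart, and none of them passed.

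Of the EphB receptors, Ephb3 and Ephb2 changed in opposite directions. Ephb3 was downregulated, with 62.6, 91.7 and 56.9 CPM in Ctrl and 30.4 and 26.9 in Confine (log2 fold change -1.30, SE 0.22, edgeR adjusted p = 0.00025). Ephb2 was upregulated, with 38.3, 37.4 and 31.8 CPM in Ctrl and 64.8 and 59.2 in Confine (log2 fold change 0.79, SE 0.18, edgeR adjusted p = 0.00322). Both encode receptors for ephrin-B ligands, and in neither did the groups overlap. The call of Ephb2 was lost without Confine 1 (0.73, edgeR adjusted p = 0.0640). The ratio of Ephb3 to Ephb2 counts was 1.63, 2.45 and 1.79 in Ctrl and 0.470 and 0.454 in Confine, so Ephb3 was counted more often in every Ctrl library and Ephb2 in every Confine library. Per kb of exon, Ephb3 gave 51.8%, 63.3% and 49.9% of the EphB level in Ctrl and 27.8% and 24.2% in Confine, while Ephb2 gave 16.7%, 13.6% and 14.7% and then 31.2% and 28.1%. The summed EphB level was 19.1 ± 2.43 CPM per kb in Ctrl (SD, n = 3) and 16.6 ± 0.169 in Confine (SD, n = 2). Ephb4 and Ephb6 did not pass, at log2 fold changes of 0.32 and 0.50 (edgeR adjusted p = 0.274 and 0.129). Ephb3 lies at chr16:21204755-21223305 on the plus strand and Ephb2 at chr4:136647539-136835988 on the minus strand.

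Of the EphA receptors, Epha3 and Epha4 were downregulated and Epha2 did not pass. Epha3, a receptor that binds ephrin-A5 strongly, had 13.4, 14.7 and 13.0 CPM in Ctrl and 7.64 and 3.81 in Confine (log2 fold change -1.25, SE 0.27, edgeR adjusted p = 0.00203). Epha4, which binds ephrins of both kinds, had 61, 49 and 26 counts in Ctrl and 21 and 5 in Confine (log2 fold change -1.86, SE 0.53, edgeR adjusted p = 0.0166). It passed the filter on low counts in Ctrl only. In both genes Confine 3 was the lower Confine library. Without it the calls were lost, at -0.84 for Epha3 (edgeR adjusted p = 0.0737) and -1.25 for Epha4 (edgeR adjusted p = 0.187), and that of Epha4 also without Ctrl 1 (-1.67, edgeR adjusted p = 0.0517). Without Confine 1 the log2 fold changes were -1.84 for Epha3 and -3.06 for Epha4. Epha2, the most abundant EphA per length, had 11.3, 10.5 and 6.97 CPM in Ctrl and 9.43 and 8.77 in Confine (-0.08, edgeR adjusted p = 0.853). Epha3 lies at chr16:63543534-63864175 and Epha4 at chr1:77367185-77515088, both on the minus strand.

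**Figure D3:**
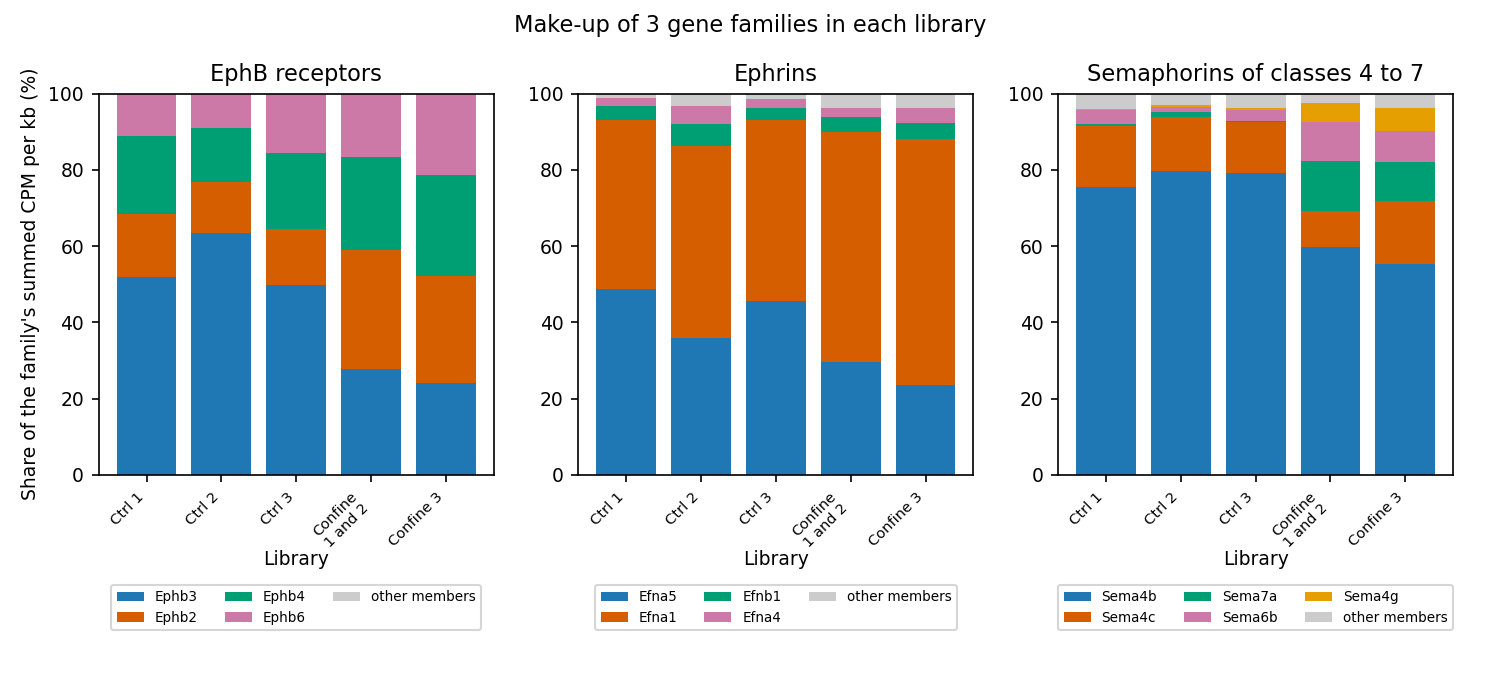
Share of each family's summed CPM per kb of exon (vertical axis, %) in each of the 5 libraries for the EphB receptors, the ephrins and the semaphorins of classes 4 to 7. Ephb3 falls from at least 49.9% in Ctrl to at most 27.8% in Confine, Efna5 from at least 35.9% to at most 29.5%, and Sema7a rises from at most 1.12% to at least 10.2%.

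Seen by level, the guidance genes changed at both ends of the range. In Ctrl the most abundant per kb were Efna1, Efna5, Plxnb2 (16.2 ± 2.02), Nrp2 (14.7 ± 1.66), Ephb3 (10.6 ± 2.81), Sema3c (10.6 ± 1.43) and Plxna1 (6.49 ± 1.28). Plxnb2 and Nrp2 were within their spread of each other, as were Ephb3 and Sema3c. In Confine Ephb3 was at 4.32 ± 0.379 and Sema3a at 0.984 ± 0.131, down from 3.66 ± 0.595. Of the upregulated semaphorins, Sema7a stood at 1.08 ± 0.237, Sema6b at 0.845 ± 0.190 and Sema4g at 0.498 ± 0.0538 CPM per kb in Confine. Sema7a and Sema6b were thus within their spread of Sema3a there.

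**Figure D4:**
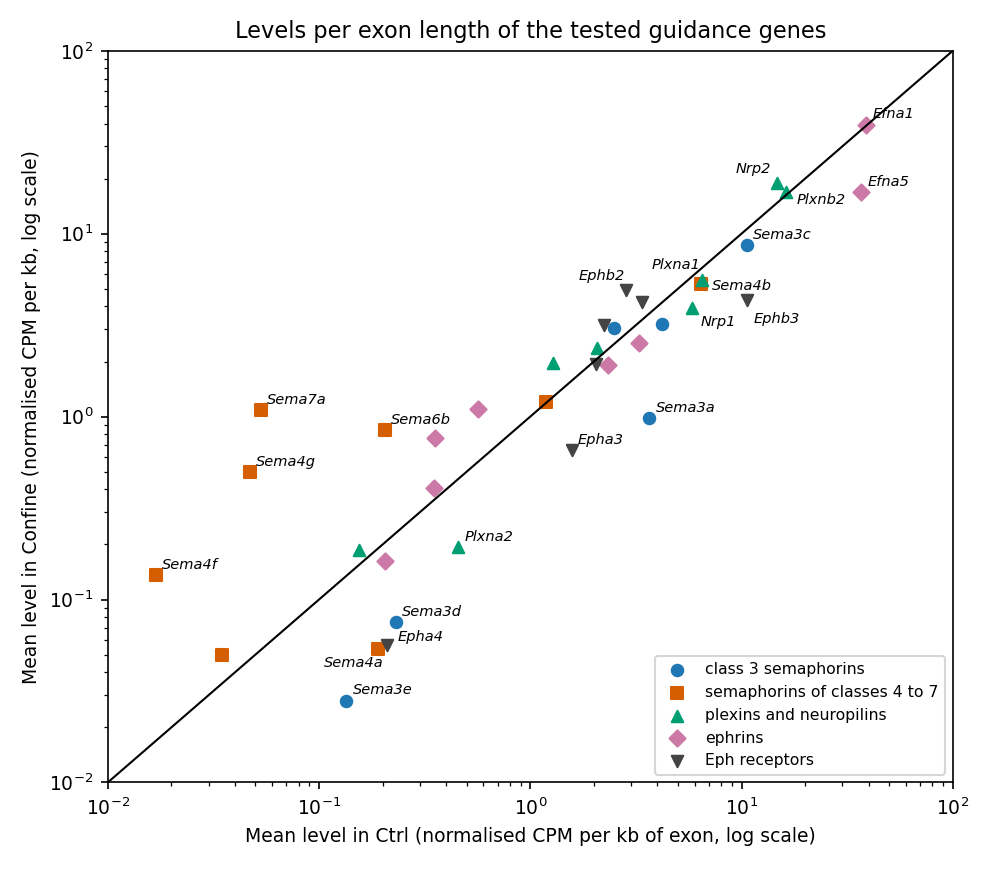
Mean CPM per kb of exon in Ctrl (horizontal) against Confine (vertical), both log axes, for the 37 tested members, with symbols by family and a line of equality. Ephb3, Efna5, Nrp1 and Sema3a lie below the line and Ephb2 above it, and the upregulated semaphorins lie above it at levels of at most 1.08 CPM per kb in Confine.

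The other 16 members were not tested. Of these Epha6, Epha10, Ephb1 and Plxna4 had no counts in any library, which allows up to 3 counts, or up to between 0.101 and 0.128 CPM. The other 12 (Epha1, Epha5, Epha7, Epha8, Plxnb3, Plxnc1, Sema3g, Sema4d, Sema5b, Sema6a, Sema6c and Sema6d) had at most 18 counts in any library, the highest being Epha1. Plxnc1, a receptor of Sema7A, had 8, 5 and 11 counts in Ctrl and 6 and 7 in Confine and overlapped between the groups. In the fit with no filter on low counts, which tested 49 members, 0 of these 12 passed by edgeR, and 1 of them, Sema3g, was at an unadjusted p under 0.05.

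Further genes were counted in 3 lists: genes linked to semaphorins and plexins, genes linked to ephrins and Eph receptors, and other guidance families. Of the 40 genes of the semaphorin and plexin list, 32 were tested and 9 passed (28.1%), 6 higher and 3 lower. Among these, Plxdc1 and Fes passed the filter on low counts in Confine only, so their calls give no support to this count. The Sema7A integrin receptor subunit gene Itga1 was downregulated, with 601, 588 and 352 counts in Ctrl and 90 and 104 in Confine (log2 fold change -2.43, SE 0.26, edgeR adjusted p = 1.50e-06), so the ligand Sema7a and this receptor gene moved in opposite directions. Plxdc1, which encodes a plexin-domain protein, had 2, 1 and 3 counts in Ctrl and 32 and 31 in Confine, and Rras, a small GTPase that plexins inactivate, had 35.6 ± 2.45 CPM in Ctrl (SD, n = 3) and 77.2 ± 8.97 in Confine (SD, n = 2; log2 fold change 1.12, SE 0.18, edgeR adjusted p = 0.000143). Fes, a kinase linked to Sema3A signalling, had 5, 6 and 6 counts in Ctrl and 32 and 17 in Confine (log2 fold change 2.00, SE 0.59, edgeR adjusted p = 0.0190). Rnd1, Arhgef11 and Pak1 were also higher and Rnd3 and Plxdc2 lower, and these were named after their values were seen.

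Of the ephrin and Eph list, 1 of 26 tested genes passed (3.85%), Sipa1l1, at a log2 fold change of 0.61 (SE 0.19, edgeR adjusted p = 0.0268). The median log2 fold change over the 26 was 0.13, beside -0.002 over all tested genes. Of the netrin, Slit and RGM list, other guidance families, 4 of 15 tested genes passed (26.7%), 3 higher and 1 lower. Robo2, a Slit receptor, rose from 4.42 ± 0.805 CPM in Ctrl (SD, n = 3) to 14.7 ± 2.63 in Confine (SD, n = 2; log2 fold change 1.73, SE 0.24, edgeR adjusted p = 2.64e-05), and the netrin receptor gene Unc5b rose from 115 ± 13.0 to 282 ± 41.6 (1.30, SE 0.18, edgeR adjusted p = 3.37e-05). Slit3, a ligand of Robo receptors, rose with a log2 fold change of 1.07 (edgeR adjusted p = 0.0101), and Unc5c fell, from 14.9 ± 3.73 CPM (SD, n = 3) to 6.99 ± 1.24 (SD, n = 2; -1.09, edgeR adjusted p = 0.00322). The lists are counted beside the background of 23.0% and were not tested as sets.

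**Figure D5:**
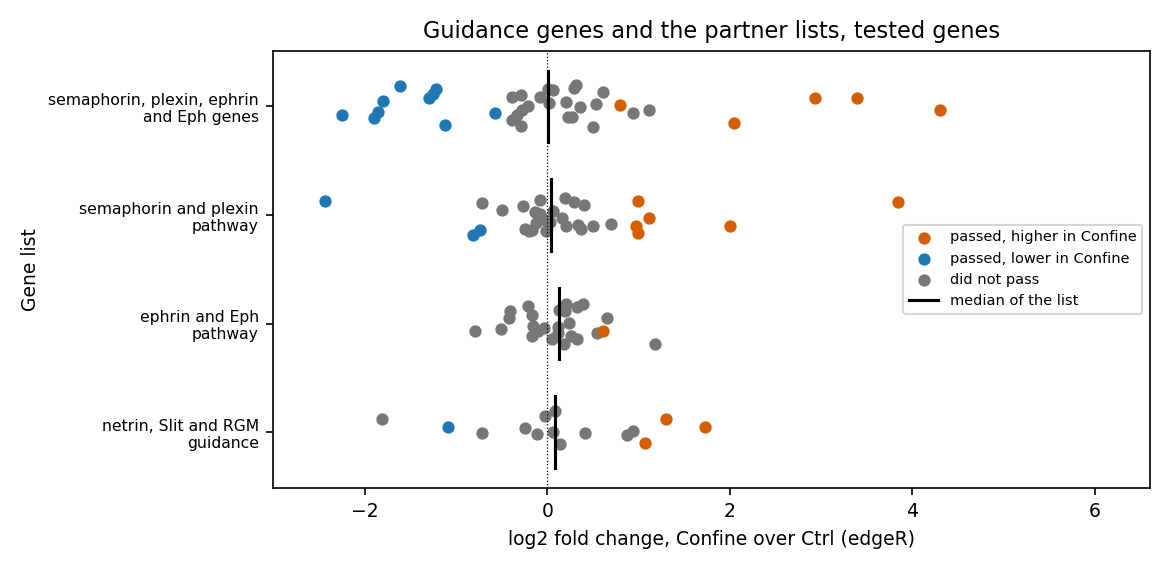
Log2 fold changes, Confine over Ctrl, of the tested guidance genes and of 3 further gene lists, 1 point per gene. Orange marks higher and blue lower at an edgeR adjusted p under 0.05, and a black bar marks the median. The medians lie at 0.01 for the guidance genes and 0.05, 0.13 and 0.08 for the lists.

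For single members, the exact permutation test over libraries on log2(CPM + 1) can give no p below 0.1 with 3 against 2, two-sided. It gave 0.1 for 13 of the 15 called members and 0.2 for Efna5 and Sema3e.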

How the data were processed

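RNA of MEFs that crossed pores and of parental MEFs was sequenced from polyadenylated RNA with dUTP marking of the second strand. The authors deposited raw counts per gene in 6 columns, and the number of columns not used was 0. Per the submitters' processing notes, the tools were Trim Galore 0.6.10, HISAT2 2.1.0, SAMtools 1.5 and featureCounts, with build mm10. The annotation and strand setting of the counting are not given in the sources used here. Of 55335 identifiers, 54587 matched GENCODE M21 (GRCm38) with their version and 55154 in all, and exon lengths came from it.

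Genes passing filterByExpr were TMM-scaled and tested with edgeR 4.0.16 in R 4.3.3 (glmQLFit, glmQLFTest, no replicate block, Benjamini-Hochberg adjustment over 15881 genes), on 3 Ctrl and 2 Confine libraries, since 2 identical columns were merged. The fit had 3 residual and 14.8 prior degrees of freedom. SE is the log2 fold change over the root of F. Scripts were tested on simulated data. DESeq2 1.42.0 and limma 3.58.1 were alternatives, with other scalings, filters, a block and leaving out each library. Promoter windows and sequences are RefSeq's on GRCm38.p6, and 47 of 53 members had one. Windows were to be printed for up to 4 called members with the largest changes and a mean of at least 50 counts. Those of Sema4g and Ephb3 overlap annotated exons and are not printed, and Sema3d, Sema3e and Sema7a were added after values were seen. Named members are all those called, the 5 uncalled ones with the highest CPM, and up to 4 called genes per further gene list. Within-library ratios, Plxna3, Efnb2, Efna2 and the neighbours of called genes were chosen after values were seen. Members and lists were chosen with earlier results of these data known.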

Additional observations from a re-analysis of the deposited data

How the results depend on the processing

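Ephb3, Sema3a, Sema4g, Sema6b and Sema7a kept their direction and their side of the threshold in every other fit that tested them. Over 217 values for the 15 called members in 15 other fits, 201 kept both, 16 fell short of the threshold and 0 reversed. Counts of called members were 15 or 16 under RLE, upper-quartile and library-size scaling, DESeq2, limma-voom and no filter. They were 10 of 30 tested with at least 10 counts in every library and 19 of 37 with the identical columns as 2 samples. Calls over all genes moved too, from 3654 of 15881 in the main fit. They were 3224 of 13612 with at least 10 counts in every library and 5146 of 15408 with the identical columns as 2 samples. Called members outside the 15 in at least 1 of these fits were Efna2, Efnb2, Nrp2, Plxna3 and Sema3f. The count of upregulated members was 3 with at least 10 counts in every library, a filter that removes members near 0 in Ctrl. It was 8 with the identical columns as 2 samples. Over all genes, these fits called 1767 and 2690 higher, beside 2035 in the main fit. An absolute log2 fold change above 1.5 left 9 members, 5 of them lower, and 1271 genes in all. Leaving out 1 library at a time gave 8 to 17 called members (4 to 7 higher, 4 to 10 lower) and 2054 to 4426 genes, the lowest without Confine 3 and then without Confine 1 (2256 genes, 6 members lower); fewer samples were tested there and the lone Confine library is assumed to vary like the Ctrl libraries. Uncalled members changed sign: Plxnb2 gave -0.14 with library size alone and -0.052 to 0.13 leaving out 1 library, and Efna1 gave -0.19 with library size alone, -0.13 with a replicate block and -0.13 to 0.12 leaving out 1 library. Library size alone moved the median of all genes to -0.21. Whether the replicate numbers pair the samples cannot be told here. Same-numbered libraries gave correlations of -0.08 and -0.007, or 0.09 and -0.007, depending on the number of the merged library. With 2 Confine libraries, their deviations from the group mean mirror each other, so these correlations cannot decide it. With a replicate block, 13 members and 2528 genes were called with the merged library as number 2 (Nrp1 at edgeR adjusted p = 0.282, Sema4a at 0.0552 and Sema4f at 0.0515 were not), and 17 members and 4933 genes as number 1. The cause of these changes was not tested. Depth limits the 16 members left out by the filter, which had at most 18 counts in a library.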
